A study of Homo sapiens with 8 samples.

Results

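FGF8+10 treatment changed gene expression in cells of both gates, and the 2 changes were compared gene by gene. For each gene, the quantity of interest was the log2 change from Mock to FGF8+10 in Msx1+Pdgfra+ cells minus the same change in Msx1+Pdgfralow cells. A positive difference means a larger rise or a smaller fall in the Pdgfra-positive cells, and a negative difference the reverse. The comparison drew on all 8 of the 8 libraries and on every gene that passed a filter on low counts, 22554 in all. The cells were H1, an established human embryonic stem cell line, and carried Msx1-P2A-tdTomato, a red fluorescent reporter of the homeobox gene MSX1. All groups shared the first steps, with Activin A (50 ng/mL), CHIR99021 (a GSK3 inhibitor, 6 µM), BMP4 (40 ng/mL) and FGF2 (10 ng/mL) on day 0, then BMP4 (60 ng/mL) with CHIR99021 (1 µM) for 3 days from day 1. On day 4 pellets were formed from dissociated cells, 25000 to a well. FGF8+10 pellets received both growth factors, each at 500 ng/mL, and the labels do not describe the Mock medium. The pellets were moved on day 5, cultured for 3 more days and sorted on day 8. This gave 4 groups of 2 libraries: FGF8+10 Pdgfra-positive, FGF8+10 Pdgfra-low, Mock Pdgfra-positive and Mock Pdgfra-low, all of the same line. The labels number the 2 libraries of a group as biological replicates but do not state that the differentiations were separate. The p-values therefore reflect only how far these libraries spread, which may be technical.

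Fibroblast growth factors bind receptor tyrosine kinases and signal mainly through RAS, RAF, MEK and ERK. ERK activity induces ETV transcription factors of the PEA3 group and also its own inhibitors, the Sprouty and SPRED proteins and the DUSP phosphatases. In the limb bud, FGF8 from the ectodermal ridge and FGF10 from the mesenchyme maintain each other and keep the mesenchyme growing. PDGFRA, a receptor for platelet-derived growth factors, marks mesenchymal progenitors of the mesoderm.

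Depth ran from 47698561 to 64390444 counts per library, and replicates correlated at Pearson's r of 0.99645 to 0.9976 across genes. PDGFRA, the gene of the second gate, stood at 453 and 455 CPM with Mock and 712 and 716 CPM with FGF8+10 in the Pdgfra-positive libraries, and 194 and 189 CPM with Mock and 279 and 292 CPM with FGF8+10 in the Pdgfra-low libraries. It rose in both populations, 1.57-fold and 1.49-fold, and the difference of 0.078 ± 0.034 missed the threshold (edgeR's quasi-likelihood test with Benjamini-Hochberg adjustment, adjusted p = 0.0918), which it passed in 4 alternative settings. Here and below, changes and differences are on the log2 scale ± SE, and folds are ratios of mean CPM (counts scaled to a common library size) of 2 libraries a group. MSX1, the gene of the first gate, rose 2.32-fold and 1.94-fold in Pdgfra-positive and Pdgfra-low cells, and its small difference of 0.26 ± 0.084 (adjusted p = 0.0178) missed the threshold in 3 of the alternative settings. Sorting followed treatment and both sort genes rose, so a response of the same cells and a change in which cells each gate took cannot be told apart. In these bulk samples, fewer cells of a type and less RNA per cell cannot be told apart either.

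The FGF8+10 change differed between the populations for 5862 genes at an adjusted p under 0.05, which is 26% of the genes tested. In 2697 of them (12% of those tested) the change was higher in Pdgfra-positive cells, and in 3165 (14%) it was lower. These shares are the background for every count of list members below. Most differences were modest, and 1002 genes (4.44%) differed at least 2-fold, 468 higher (2.08%) and 534 lower (2.37%). Among the genes that moved the same way in both populations, 3266 differed in size, and in 2407 of these the larger change was in Pdgfra-low cells. They comprised 1386 genes that rose more and 1021 that fell more in Pdgfra-low cells, against 383 that rose more and 476 that fell more in Pdgfra-positive cells. A further 401 genes rose and 394 fell with a call in Pdgfra-positive cells alone, and 639 rose and 636 fell with a call in Pdgfra-low cells alone. The remaining 64 were called in neither population. Opposite directions, each called, were found for 462 genes (2.05%), of which 222 rose in Pdgfra-positive and fell in Pdgfra-low cells and 240 did the reverse. In 459 of these 462, neither population's FGF8+10 libraries overlapped its Mock libraries, and 1474 of all tested genes had libraries apart in opposite directions in this way (6.54%).

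The opposite calls of small size depended on the scaling. TMM scaling, which assumes that most genes do not change, put the median change near 0 in both populations, and scaling by library totals alone raised it by 0.173 (log2) in Pdgfra-positive and 0.161 in Pdgfra-low cells. Under library totals 183 of the 462 genes kept opposite calls, although all 462 kept the call for the difference itself. Of the 37 genes with changes of at least 1.5-fold in both directions, 32 kept opposite calls. Library totals also gave 666 genes, in place of 383, that rose in both and more in Pdgfra-positive cells, and 315, in place of 476, that fell in both and more there. All directions below are relative to the TMM scale unless library totals are named. The difference is also the contrast of Pdgfra-positive with Pdgfra-low cells under FGF8+10 minus that contrast under Mock. Of the 5862 genes, the populations differed under both treatments for 2259, under FGF8+10 but not Mock by the calls for 2646, and under Mock but not FGF8+10 for 755.

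**Figure D1:**
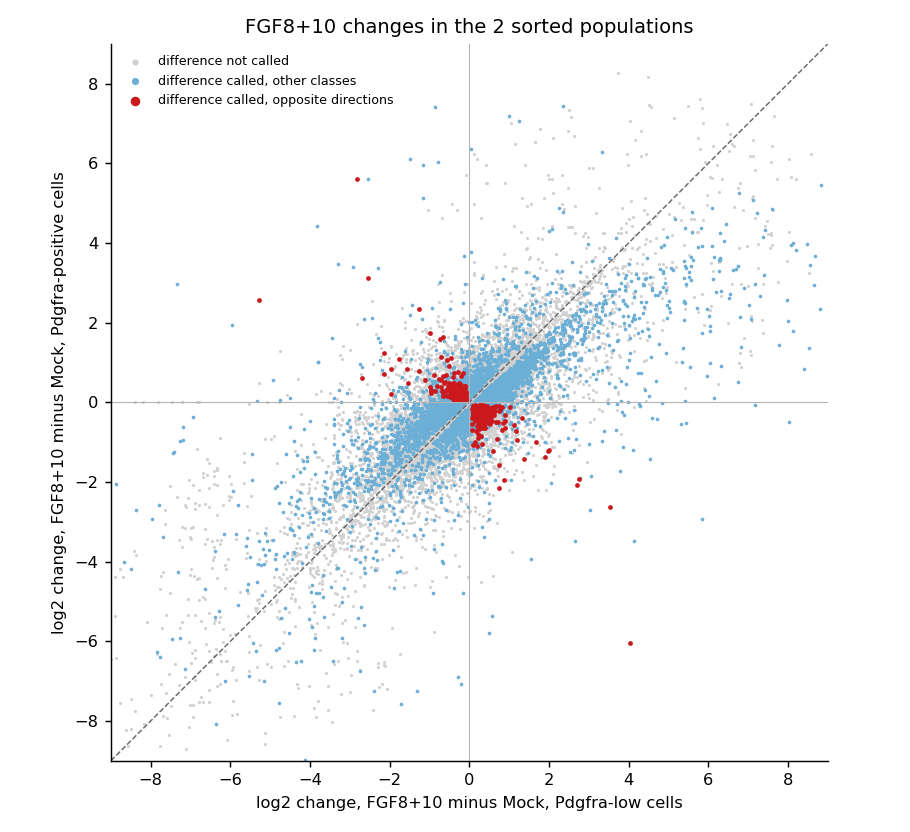
Log2 change with FGF8+10 in Pdgfra-positive cells (vertical axis) against that in Pdgfra-low cells (horizontal axis), 1 point per gene for 22516 of the 22554 genes tested, with 38 outside the axes. The dashed line marks equal changes. The 462 genes with opposite calls lie in the upper left and lower right parts of the plot, most of them close to the origin.

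For each orientation, the 6 genes whose smaller change was largest are described, so their values are a description of that choice. The genes that rose in Pdgfra-positive and fell in Pdgfra-low cells came from unrelated families. KCNIP1 (chromosome 5, 170353487 to 170736632, plus strand, GRCh38) encodes a calcium-binding partner of voltage-gated potassium channels and stood at 0.538 and 0.726 CPM with Mock and 1.53 and 1.5 CPM with FGF8+10 in the Pdgfra-positive libraries, and 6.14 and 7.34 CPM with Mock and 1.30 and 1.74 CPM with FGF8+10 in the Pdgfra-low libraries. TNFAIP3 (chromosome 6, 137867214 to 137883314, plus strand), the ubiquitin-editing inhibitor of NF-kappaB known as A20, stood at 2.37 and 3.20 CPM with Mock and 4.87 and 5.15 CPM with FGF8+10 in the Pdgfra-positive libraries, and 29.9 and 28.4 CPM with Mock and 7.71 and 7.25 CPM with FGF8+10 in the Pdgfra-low libraries. In both genes the Mock Pdgfra-low libraries were the highest by far, and treatment brought the populations closer. The log2 differences were 3.39 ± 0.34 and 2.80 ± 0.17. TENM2 (chromosome 5, 166979029 to 168264157, plus strand), a teneurin adhesion receptor, stood at 2.20 and 2.14 CPM with Mock and 6.86 and 7.55 CPM with FGF8+10 in the Pdgfra-positive libraries, and 8.53 and 9.18 CPM with Mock and 4.68 and 4.30 CPM with FGF8+10 in the Pdgfra-low libraries. NFATC2 (chromosome 20, 51386957 to 51562831, minus strand), a calcineurin-dependent transcription factor, stood at 3.63 and 3.30 CPM with Mock and 10.8 and 10.0 CPM with FGF8+10 in the Pdgfra-positive libraries, and 21.5 and 20.9 CPM with Mock and 12.4 and 13.2 CPM with FGF8+10 in the Pdgfra-low libraries. In TENM2 the order of the populations turned over with treatment, while in NFATC2 the Pdgfra-positive libraries stayed below the Pdgfra-low libraries. Their differences were 2.71 ± 0.21 and 2.32 ± 0.15.

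NELL2 (chromosome 12, 44508275 to 44921848, minus strand), a secreted glycoprotein that guides axons through ROBO receptors, stood at 63.1 and 63.1 CPM with Mock and 108 and 109 CPM with FGF8+10 in the Pdgfra-positive libraries, and 72.0 and 75.2 CPM with Mock and 31.1 and 29.9 CPM with FGF8+10 in the Pdgfra-low libraries. IGFBP5 (chromosome 2, 216672105 to 216695549, minus strand), a secreted binding protein of insulin-like growth factors, stood at 57.3 and 56.7 CPM with Mock and 124 and 127 CPM with FGF8+10 in the Pdgfra-positive libraries, and 77.3 and 75.9 CPM with Mock and 46.0 and 47.2 CPM with FGF8+10 in the Pdgfra-low libraries. The populations were close for both genes under Mock and far apart under FGF8+10, with Pdgfra-positive cells higher. NELL2 rose 1.72-fold in Pdgfra-positive cells and fell 2.42-fold in Pdgfra-low cells (difference 2.05 ± 0.061, adjusted p = 3.38e-29). IGFBP5 rose 2.20-fold and fell 1.64-fold (difference 1.86 ± 0.057, adjusted p = 1.05e-28). No library of either population's FGF8+10 group overlapped its Mock group in any of these 6 genes.

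In the other orientation, TIE1 (chromosome 1, 43300982 to 43323108, plus strand), a receptor tyrosine kinase of endothelial cells, stood at 4.82 and 3.49 CPM with Mock and 1.98 and 1.56 CPM with FGF8+10 in the Pdgfra-positive libraries, and 3.50 and 3.84 CPM with Mock and 14.7 and 14.3 CPM with FGF8+10 in the Pdgfra-low libraries. APLNR (chromosome 11, 57233577 to 57237250, minus strand), the receptor for apelin, stood at 5.09 and 3.71 CPM with Mock and 2.07 and 1.77 CPM with FGF8+10 in the Pdgfra-positive libraries, and 4.75 and 6.43 CPM with Mock and 21.5 and 23.6 CPM with FGF8+10 in the Pdgfra-low libraries. Both genes were low in all Mock libraries, fell further in Pdgfra-positive cells and rose about as much as each other in Pdgfra-low cells (3.96-fold and 4.03-fold). Their differences were -3.21 ± 0.23 and -3.20 ± 0.21. SP6 (chromosome 17, 47844908 to 47855874, minus strand), a zinc finger transcription factor, stood at 0.784 and 1.70 CPM with Mock and 0.444 and 0.515 CPM with FGF8+10 in the Pdgfra-positive libraries, and 1.51 and 1.27 CPM with Mock and 5.81 and 4.54 CPM with FGF8+10 in the Pdgfra-low libraries. Its difference was -3.27 ± 0.41.

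AHR, the ligand-activated aryl hydrocarbon receptor, and CYP1B1, a cytochrome P450 that AHR is known to induce, moved in the same pair of directions. AHR (chromosome 7, 16916359 to 17346152, plus strand) stood at 5.58 and 7.16 CPM with Mock and 4.43 and 3.34 CPM with FGF8+10 in the Pdgfra-positive libraries, and 5.32 and 4.75 CPM with Mock and 11.3 and 11.4 CPM with FGF8+10 in the Pdgfra-low libraries. CYP1B1 (chromosome 2, 38066973 to 38109902, minus strand) stood at 20.7 and 19.4 CPM with Mock and 4.71 and 5.74 CPM with FGF8+10 in the Pdgfra-positive libraries, and 12.7 and 12.8 CPM with Mock and 23.5 and 22.8 CPM with FGF8+10 in the Pdgfra-low libraries. AHR fell 1.64-fold and rose 2.26-fold, and CYP1B1 fell 3.84-fold and rose 1.82-fold in Pdgfra-positive and Pdgfra-low cells. Their differences were -1.89 ± 0.21 and -2.80 ± 0.13. Counting ignored strand, and 35.2% of AHR's and 13.1% of CYP1B1's exon bases lie in exons of other genes, so these values are less certain than the others. MYLK3 (chromosome 16, 46702282 to 46790407, minus strand), a myosin light chain kinase known from heart muscle, stood at 8.24 and 6.81 CPM with Mock and 2.75 and 2.34 CPM with FGF8+10 in the Pdgfra-positive libraries, and 3.75 and 4.10 CPM with Mock and 6.87 and 6.41 CPM with FGF8+10 in the Pdgfra-low libraries. Pdgfra-positive cells had more MYLK3 under Mock and less under FGF8+10, a difference of -2.32 ± 0.23. The largest adjusted p among the 12 genes was 1.33e-08, for SP6, in the test that was also used to choose them. All 12 kept both directions under library totals. That scaling shifted changes by only 0.173 and 0.161 (log2), and the genes were chosen for larger changes, so it could not turn them.

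**Figure D2:**
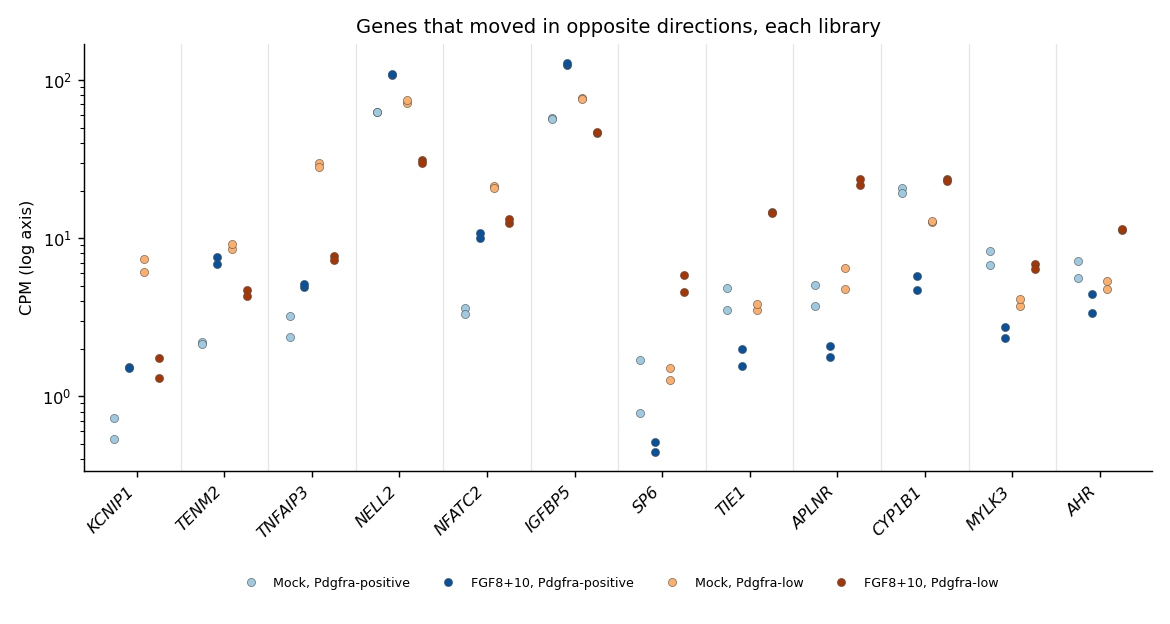
CPM (vertical log axis) of the 12 genes in each of the 8 libraries, 1 point per library, coloured by group. In the 6 genes at left the Pdgfra-positive points rise and the Pdgfra-low points fall with FGF8+10, and in the 6 at right the reverse, with no overlap between treatments within a population.

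Most feedback inhibitors of FGF and ERK signalling rose in each population, and 8 of 16 rose in both and further in Pdgfra-low cells. Of 16 members tested, 13 rose in Pdgfra-positive and 12 in Pdgfra-low cells, where 25.8% and 27.9% of all genes rose. The difference was lower in Pdgfra-positive cells for 10 (14% of all genes) and higher for 1 (12% of all genes), and its median was -0.386 against -0.00915 over all genes. SPRY4, a Sprouty inhibitor of RAS signalling, stood at 9.01 and 8.96 CPM with Mock and 87.1 and 94.2 CPM with FGF8+10 in the Pdgfra-positive libraries, and 1.59 and 1.60 CPM with Mock and 158 and 155 CPM with FGF8+10 in the Pdgfra-low libraries. DUSP6, the cytoplasmic ERK phosphatase, stood at 4.32 and 4.03 CPM with Mock and 24.0 and 24.7 CPM with FGF8+10 in the Pdgfra-positive libraries, and 1.87 and 2.08 CPM with Mock and 64.3 and 64.9 CPM with FGF8+10 in the Pdgfra-low libraries. SPRY1 stood at 16.5 and 17.3 CPM with Mock and 201 and 202 CPM with FGF8+10 in the Pdgfra-positive libraries, and 3.37 and 3.64 CPM with Mock and 174 and 171 CPM with FGF8+10 in the Pdgfra-low libraries. In all 3 genes the Mock Pdgfra-low libraries were the lowest, so that the same gene started lower there and rose by a larger factor. SPRY4 and DUSP6 ended higher in Pdgfra-low than in Pdgfra-positive cells, while SPRY1 ended slightly lower. SPRY4 rose 10.1-fold and 98.1-fold (difference -3.28 ± 0.11), DUSP6 5.83-fold and 32.6-fold (-2.48 ± 0.14) and SPRY1 11.9-fold and 49.2-fold (-2.05 ± 0.079).

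DUSP5, the nuclear ERK phosphatase, stood at 1.32 and 0.996 CPM with Mock and 1.54 and 1.68 CPM with FGF8+10 in the Pdgfra-positive libraries, and 0.756 and 0.711 CPM with Mock and 7.90 and 8.85 CPM with FGF8+10 in the Pdgfra-low libraries. It rose 11.4-fold in Pdgfra-low cells, while its log2 change of 0.48 ± 0.23 in Pdgfra-positive cells was not called by TMM and was called by library totals. The difference was -3.03 ± 0.33 (adjusted p = 3.24e-10). SPRY2 started level and rose 5.92-fold and 6.64-fold, and its difference of -0.17 ± 0.081 was not called (adjusted p = 0.141). SPRED1 and SPRED2, membrane-bound inhibitors of RAS and RAF, had differences of -0.41 ± 0.055 and -0.48 ± 0.052. The single member with a higher change in Pdgfra-positive cells was DUSP7, at 0.44 ± 0.057. DUSP6 shares 28.6% of its exon bases with other genes, so its counts are less certain.

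Among 19 transcription factors and immediate targets of ERK, the difference was lower in Pdgfra-positive cells for 11 (14% of all genes) and higher for 1 (12% of all genes), with a median of -0.798. In Pdgfra-positive cells 6 rose and 11 fell (25.8% and 25.1% of all genes). In Pdgfra-low cells 8 rose and 10 fell (27.9% and 27.7%). Of the 11 lower differences, 4 were larger rises in Pdgfra-low cells and 5 were larger falls in Pdgfra-positive cells. The latter included KLF4, which fell 12.2-fold and 7.94-fold, and MYC, which fell 2.59-fold and 1.45-fold. ETV1 and ETV4, of the PEA3 group, had the largest differences on the list, and that of ETV5, of the same group, was not called (rises of 5.72-fold and 7.16-fold, difference -0.33 ± 0.13). ETV1 stood at 5.58 and 4.25 CPM with Mock and 78.5 and 75.0 CPM with FGF8+10 in the Pdgfra-positive libraries, and 0.230 and 0.265 CPM with Mock and 92.3 and 85.0 CPM with FGF8+10 in the Pdgfra-low libraries. ETV4 stood at 1.75 and 2.22 CPM with Mock and 19.0 and 17.9 CPM with FGF8+10 in the Pdgfra-positive libraries, and 0.263 and 0.281 CPM with Mock and 45.3 and 47.7 CPM with FGF8+10 in the Pdgfra-low libraries. In both genes the Mock Pdgfra-low libraries were the lowest and the FGF8+10 Pdgfra-low libraries the highest. The differences were -4.50 ± 0.21 and -4.20 ± 0.24. CCND1, the G1 cyclin D1, rose 3.67-fold and 8.52-fold (difference -1.21 ± 0.057). Immediate early genes on the list were mixed. IER2 rose 2.02-fold in Pdgfra-low cells, with a difference of -0.86 ± 0.099. IER3 (log2 changes 0.87 ± 0.32 and 1.45 ± 0.30) and FOSL1 (1.28 ± 0.65 and 2.64 ± 0.47) had differences that were not called. IER2 shares 52.2% and IER3 38.9% of its exon bases with other genes, so their counts are less certain. EGR1 fell 1.95-fold in Pdgfra-positive cells (log2 changes -0.96 ± 0.052 and -0.16 ± 0.058, difference -0.80 ± 0.078), and FOS had a difference of -0.26 ± 0.043 in the same direction. Their falls in Pdgfra-low cells were not called by library totals.

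**Figure D3:**
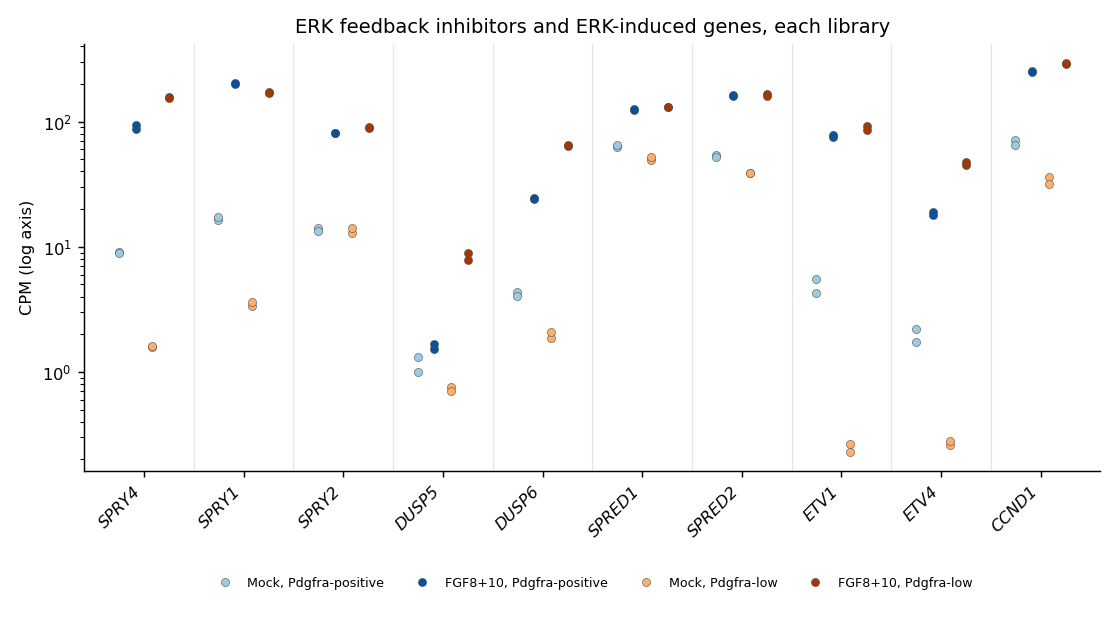
CPM (vertical log axis) of 7 feedback inhibitors and 3 ERK-induced genes in each library, 1 point per library, coloured by group. The Mock Pdgfra-low points are the lowest for SPRY4, SPRY1, DUSP5, DUSP6, ETV1, ETV4 and CCND1, while SPRY2 starts and ends nearly level in the 2 populations.

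The FGF receptors and ligands were mixed. FGFR2, a receptor whose splice forms bind FGF8 or FGF10, stood at 1581 and 1599.6 CPM with Mock and 266 and 275 CPM with FGF8+10 in the Pdgfra-positive libraries, and 1690.3 and 1694 CPM with Mock and 147 and 145 CPM with FGF8+10 in the Pdgfra-low libraries. It fell 5.87-fold and 11.6-fold, so that Pdgfra-low cells lost more of it (difference 0.98 ± 0.029). FLRT3, a membrane partner of FGF receptors, fell by 0.31 and 0.78 on the log2 scale, a difference of 0.48 ± 0.041. FGFRL1, a receptor without a kinase domain, had a difference of -0.33 ± 0.085. Of 12 receptor and coreceptor genes tested, 4 differences were higher and 2 lower in Pdgfra-positive cells. Of 13 tested FGF ligands, 4 were higher and 1 lower. FGF18 led them. It stood at 0.224 and 0 CPM with Mock and 0.148 and 0.0883 CPM with FGF8+10 in the Pdgfra-positive libraries, and 2.05 and 2.07 CPM with Mock and 0.0377 and 0.136 CPM with FGF8+10 in the Pdgfra-low libraries, near the detection limit everywhere but in Mock Pdgfra-low cells, with a difference of 4.62 ± 0.99. FGF10 itself rose in both populations (log2 changes 4.12 ± 0.096 and 3.69 ± 0.093), and its difference of 0.43 ± 0.15 missed the threshold in 5 alternative settings.

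Endothelial genes separated the populations under FGF8+10. All 20 markers tested had differences below 0, as had 50.9% of all genes. The test called 14 of them lower in Pdgfra-positive cells and 0 higher, and the median difference was -2.48. PECAM1, the adhesion molecule CD31, stood at 0.986 and 0.892 CPM with Mock and 2.09 and 3.11 CPM with FGF8+10 in the Pdgfra-positive libraries, and 0.706 and 0.645 CPM with Mock and 19.4 and 17.5 CPM with FGF8+10 in the Pdgfra-low libraries. CDH5, the VE-cadherin of endothelial junctions, stood at 1.17 and 0.747 CPM with Mock and 1.05 and 1.72 CPM with FGF8+10 in the Pdgfra-positive libraries, and 1.66 and 1.14 CPM with Mock and 19.4 and 20.2 CPM with FGF8+10 in the Pdgfra-low libraries. ESAM, a junction adhesion molecule, stood at 0.919 and 0.872 CPM with Mock and 1.07 and 0.942 CPM with FGF8+10 in the Pdgfra-positive libraries, and 0.772 and 0.662 CPM with Mock and 16.2 and 16.5 CPM with FGF8+10 in the Pdgfra-low libraries. All 3 were at most 3.11 CPM in the other 3 groups and 16.2 to 20.2 CPM in FGF8+10 Pdgfra-low cells. Their differences were -3.30 ± 0.31, -3.27 ± 0.32 and -4.34 ± 0.32. TAL1, a transcription factor of blood and endothelial progenitors, and STAB1, a scavenger receptor, behaved alike, with differences of -4.31 ± 0.57 and -3.60 ± 0.50. CLDN5, the tight junction claudin, had the largest value, -4.76 ± 1.1, but stood under 1 CPM throughout, with 0.0224 and 0.477 CPM in the Mock Pdgfra-positive libraries, and was not called without the second of these (-1.37).

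Receptors of the list that mesoderm also expresses differed little. KDR, the VEGF receptor that marks lateral mesoderm as well as endothelium, stood at 1159.5 and 1148 CPM with Mock and 1609.5 and 1609.6 CPM with FGF8+10 in the Pdgfra-positive libraries, and 1208 and 1202 CPM with Mock and 1968 and 1970.0 CPM with FGF8+10 in the Pdgfra-low libraries (difference -0.23 ± 0.025). TEK, the angiopoietin receptor, rose 3.10-fold and 3.26-fold, and its difference of -0.073 ± 0.035 was not called (adjusted p = 0.127). These abundant receptors dominated the summed level of the list, which was 1510 to 1580 CPM in the Mock libraries, 2350 to 2360 in FGF8+10 Pdgfra-positive and 2950 to 2960 in FGF8+10 Pdgfra-low libraries. LYVE1 was at 0 in all 4 Mock libraries, and the defining markers PECAM1 and CDH5 were at 0 in none. The part of endothelial cells in the Pdgfra-low values was not tested. Of 5 blood-lineage markers tested, 2 were also lower in Pdgfra-positive cells in their change, CD34 (-3.47 ± 0.30), which rose 15.4-fold in Pdgfra-low cells, and RUNX1 (-2.15 ± 0.45), which fell 4.28-fold in Pdgfra-positive cells.

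**Figure D4:**
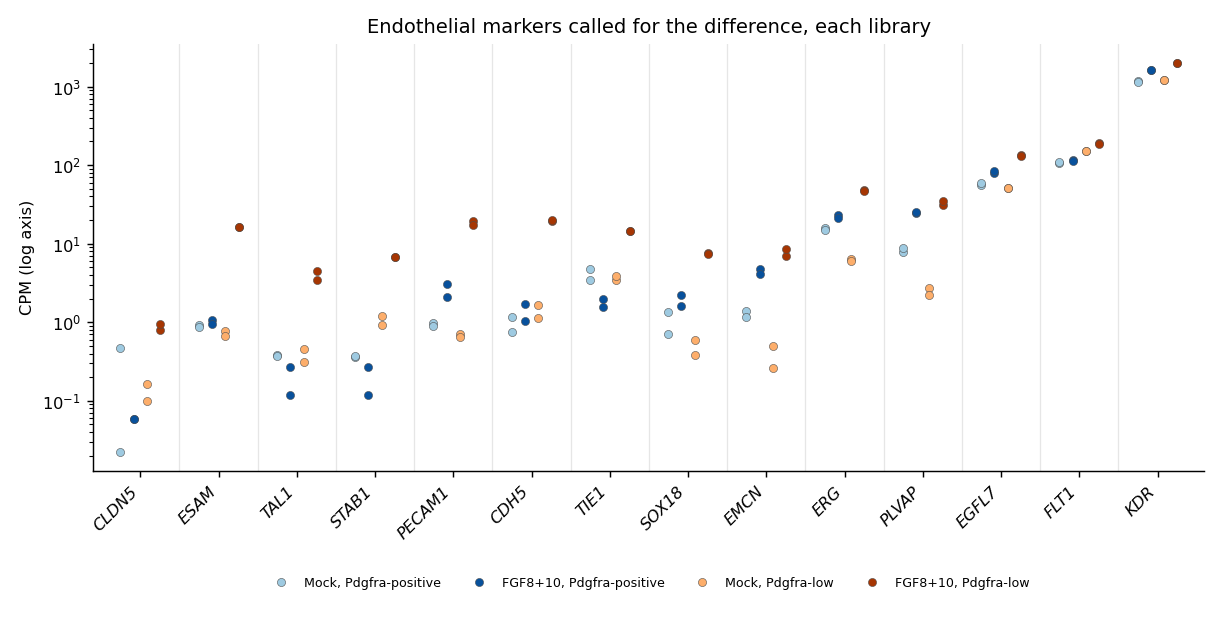
CPM (vertical log axis) of the 14 endothelial markers called for the difference, 1 point per library, coloured by group. For ESAM, TAL1, STAB1, PECAM1, CDH5, TIE1 and SOX18 the FGF8+10 Pdgfra-low points stand apart above the 6 other libraries, while FLT1 and KDR are abundant in all 8.

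Among ligands and receptors of blood vessel growth, ANGPT1, the ligand that activates TEK, stood at 18.6 and 19.7 CPM with Mock and 310.2 and 308 CPM with FGF8+10 in the Pdgfra-positive libraries, and 0.854 and 0.992 CPM with Mock and 258 and 262 CPM with FGF8+10 in the Pdgfra-low libraries. It rose 16.2-fold in Pdgfra-positive and 282-fold in Pdgfra-low cells from a Mock level that was far lower in the latter, and the populations ended close together (difference -4.12 ± 0.095, adjusted p = 3.76e-33). VEGFC, a lymphatic growth factor, rose 2.24-fold in Pdgfra-positive cells, while its log2 change was -0.053 ± 0.082 in Pdgfra-low cells (difference 1.21 ± 0.12). FLT4, its receptor, had a difference of -1.15 ± 0.24 the other way. Of the 15 genes on this list, 3 differences were higher and 7 lower in Pdgfra-positive cells.

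The cholesterol synthesis genes were the only one of the 42 lists in which every member was called for the difference. Cells make cholesterol from acetyl-CoA through mevalonate, squalene and lanosterol, and SREBP2, held back by INSIG1 when sterols are plentiful, induces the pathway's genes. For all 21 genes the change was lower in Pdgfra-positive than in Pdgfra-low cells, with a median difference of -0.857 and values from -1.22 to -0.336. In Pdgfra-positive cells 16 fell (25.1% of all genes) and in Pdgfra-low cells 15 rose (27.9% of all genes), with median changes of -0.361 and 0.463. By library totals 9 fell in Pdgfra-positive cells and 16 rose in Pdgfra-low cells. Under that scaling the median change over all genes was 0.161 and 0.146, so the shares above do not apply to these counts. HMGCS1, which makes HMG-CoA, stood at 251 and 256 CPM with Mock and 178 and 180.2 CPM with FGF8+10 in the Pdgfra-positive libraries, and 227 and 233 CPM with Mock and 372 and 386 CPM with FGF8+10 in the Pdgfra-low libraries. SQLE, the squalene epoxidase, stood at 210.1 and 222 CPM with Mock and 133 and 134 CPM with FGF8+10 in the Pdgfra-positive libraries, and 219.6 and 223 CPM with Mock and 229.8 and 235 CPM with FGF8+10 in the Pdgfra-low libraries. DHCR7, which reduces 7-dehydrocholesterol to cholesterol, stood at 109.8 and 108 CPM with Mock and 54.3 and 54.4 CPM with FGF8+10 in the Pdgfra-positive libraries, and 95.6 and 97.3 CPM with Mock and 109 and 106 CPM with FGF8+10 in the Pdgfra-low libraries. Under Mock the populations lay close together for all 3 genes, and under FGF8+10 the Pdgfra-low libraries stood well above the Pdgfra-positive libraries without overlap.

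HMGCS1 fell 1.42-fold in Pdgfra-positive and rose 1.65-fold in Pdgfra-low cells, a difference of -1.22 ± 0.037 (adjusted p = 6.9e-29). DHCR7 and SQLE had differences of -1.16 ± 0.052 and -0.77 ± 0.041. INSIG1 rose in both populations, 1.22-fold and 2.50-fold (difference -1.03 ± 0.055). The smallest differences belonged to PMVK (-0.34 ± 0.12, adjusted p = 0.0356) and EBP (-0.44 ± 0.16, adjusted p = 0.0361). Opposite calls were made for 10 of the 21 by TMM and for 6 by library totals, HMGCS1, SQLE, MSMO1 and DHCR7 among those under both. CYP51A1 shares 74.1% and HMGCS1 37.7% of its exon bases with other genes, so their counts are less certain.

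**Figure D5:**
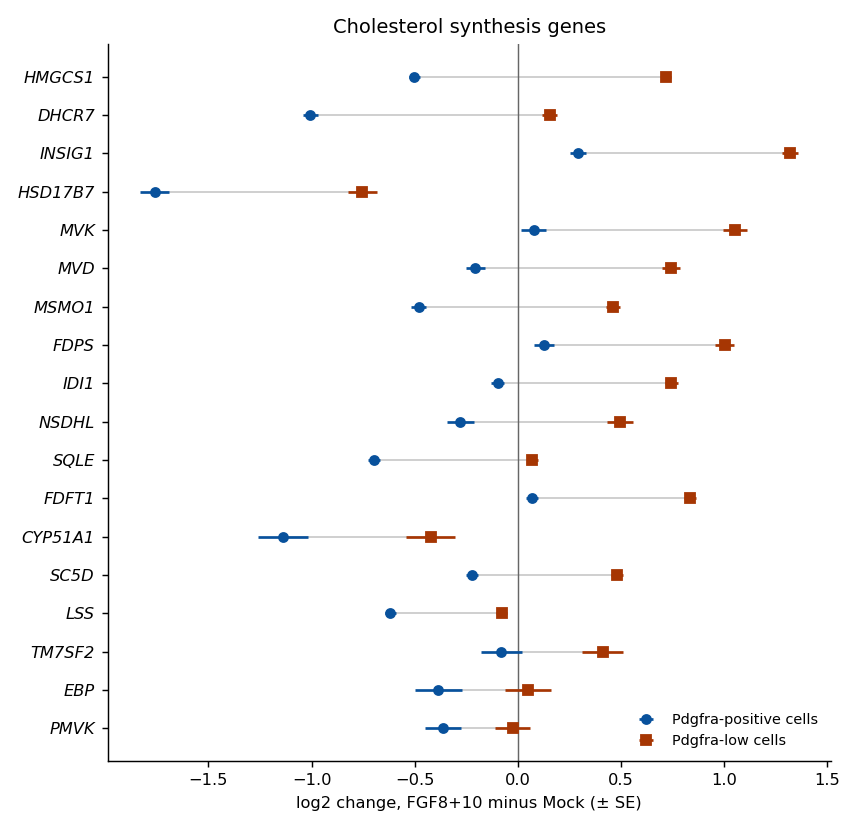
Log2 change with FGF8+10 ± SE (horizontal axis) of 18 of the 21 cholesterol genes in Pdgfra-positive cells (circles) and Pdgfra-low cells (squares), ordered by the difference. The square lies to the right of the circle in every row, and in 8 rows the 2 called changes lie on opposite sides of 0.

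Promoter sequence was examined because the cholesterol genes moved together. The CCAAT box, bound by the trimeric factor NF-Y and often found beside SREBP sites, was searched in the 250 bases before each RefSeq start (GRCh38.p14) as CCAAT and, for the other strand, ATTGG. It occurred in 16 of 21 windows of the 16 cholesterol genes that had a window (76.2%), and in 32.0% of all 35116 windows. The cell cycle genes held it in 30 of 36 windows (83.3%), so it was no less common there. Other lists with mostly lower changes in Pdgfra-positive cells held it less often. The box occurred in 20.8% of windows of feedback inhibitors, 37.0% of heat shock and dissociation genes and 38.9% of endothelial markers. The sterol regulatory core TCACNCCA, searched on both strands, occurred in 2 of the 21 cholesterol windows (9.52%) and in 3.2% of all windows. The stretches below are the parts of the windows of HMGCS1, MSMO1 and NSDHL that lie before any annotated exon, printed 5′ to 3′ with both forms of the box in capitals. They were shown because these genes had the 3 largest differences among the cholesterol genes that had opposite calls and a box in such a stretch. HMGCS1 is read from the minus strand of chr5:43313513-43313662, MSMO1 from the plus strand of chr4:165327419-165327666 and NSDHL from the plus strand of chrX:152830813-152830966. In NSDHL the last 2 boxes overlap.
HMGCS1: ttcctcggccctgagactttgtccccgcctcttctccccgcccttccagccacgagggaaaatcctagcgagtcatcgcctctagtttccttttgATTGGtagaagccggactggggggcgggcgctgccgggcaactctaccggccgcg
MSMO1: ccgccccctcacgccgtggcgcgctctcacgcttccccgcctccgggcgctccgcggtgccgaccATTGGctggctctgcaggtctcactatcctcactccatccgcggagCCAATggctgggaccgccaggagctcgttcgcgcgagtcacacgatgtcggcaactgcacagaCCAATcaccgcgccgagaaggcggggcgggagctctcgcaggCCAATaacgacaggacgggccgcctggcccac
NSDHL: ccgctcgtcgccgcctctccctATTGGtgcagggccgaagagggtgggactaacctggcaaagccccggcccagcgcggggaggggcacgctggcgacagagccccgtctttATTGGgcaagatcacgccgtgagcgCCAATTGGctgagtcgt

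MSMO1, the sterol-C4-methyl oxidase, stood at 112 and 111 CPM with Mock and 77.8 and 82.0 CPM with FGF8+10 in the Pdgfra-positive libraries, and 109.8 and 106 CPM with Mock and 147 and 151 CPM with FGF8+10 in the Pdgfra-low libraries, a difference of -0.94 ± 0.049. NSDHL, the sterol dehydrogenase of the same step, stood at 27.0 and 29.9 CPM with Mock and 24.0 and 23.0 CPM with FGF8+10 in the Pdgfra-positive libraries, and 27.8 and 28.4 CPM with Mock and 40.8 and 38.5 CPM with FGF8+10 in the Pdgfra-low libraries, a difference of -0.78 ± 0.092. The fall of NSDHL in Pdgfra-positive cells was not called by library totals.

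Cell cycle genes rose in both populations and more in Pdgfra-low cells. All 30 tested rose in each population (25.8% and 27.9% of all genes), by medians of 0.953 and 1.33 (log2). The difference was called lower in Pdgfra-positive cells for 26 and higher for 0 (median -0.378). MKI67, the proliferation antigen Ki-67, stood at 159 and 155 CPM with Mock and 291 and 287 CPM with FGF8+10 in the Pdgfra-positive libraries, and 147 and 146 CPM with Mock and 429 and 424 CPM with FGF8+10 in the Pdgfra-low libraries. CENPE, a kinetochore motor, had a difference of -0.61 ± 0.058, BUB1B, a spindle checkpoint kinase, -0.60 ± 0.072 and CCNB1, cyclin B1, -0.57 ± 0.052. The populations were near each other under Mock for MKI67 and apart under FGF8+10, with Pdgfra-low cells higher. The list's summed level was 1710 to 1960 CPM in the Mock libraries, and under FGF8+10 it was 3360 in both libraries of Pdgfra-positive cells and 5060 and 5090 in those of Pdgfra-low cells. The 4 members without a call were TYMS, MCM2, CDC45 and MCM5, all of DNA synthesis and replication, with differences from -0.25 to 0.055. TYMS shares 47.9% of its exon bases with other genes.

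Heat shock genes also had lower changes in Pdgfra-positive cells. Of 20 heat shock and dissociation genes, the difference was lower in Pdgfra-positive cells for 15 and higher for 0, with a median of -0.453. HSPH1, a nucleotide exchange factor of HSP70, stood at 70.7 and 69.8 CPM with Mock and 39.7 and 41.7 CPM with FGF8+10 in the Pdgfra-positive libraries, and 87.1 and 84.8 CPM with Mock and 97.0 and 104 CPM with FGF8+10 in the Pdgfra-low libraries. HSPE1 and HSPD1, the mitochondrial chaperonins, had differences of -1.02 ± 0.16 and -0.69 ± 0.033. HSP90AA1, the inducible cytosolic HSP90, had -0.69 ± 0.030. HSPH1, HSPE1, HSPD1 and DNAJA1 fell in Pdgfra-positive and rose in Pdgfra-low cells by both scalings, whereas HSP90AA1 did so by TMM only and rose in both by library totals. JUN, an immediate early gene that cell dissociation induces, fell 2.03-fold in Pdgfra-positive cells with a difference of -1.0 ± 0.081. The list's summed level was 4000 and 4020 CPM in FGF8+10 Pdgfra-positive, 5600 and 5630 in FGF8+10 Pdgfra-low and 4910 to 5070 in the Mock libraries, and the part of stress during dissociation and sorting in the differences was not tested.

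Among 15 p53 targets, the difference was lower in Pdgfra-positive cells for 8 and higher for 3. CDKN1A, the cyclin-dependent kinase inhibitor p21, stood at 18.1 and 18.4 CPM with Mock and 18.7 and 18.9 CPM with FGF8+10 in the Pdgfra-positive libraries, and 46.6 and 46.7 CPM with Mock and 96.2 and 95.8 CPM with FGF8+10 in the Pdgfra-low libraries. It rose 2.06-fold in Pdgfra-low cells and had a log2 change of 0.044 ± 0.060 in Pdgfra-positive cells, called as a rise by library totals only (difference -1.0 ± 0.078). Of 26 hypoxia and glycolysis genes, 11 differences were lower and 2 higher. LDHA, lactate dehydrogenase A, fell 1.45-fold in Pdgfra-positive cells and had a small called rise of 0.081 ± 0.023 in Pdgfra-low cells (difference -0.61 ± 0.033). PKM, the pyruvate kinase, rose 1.32-fold and 1.91-fold (difference -0.53 ± 0.033). PGK1 and ENO1 had opposite calls by TMM but not by library totals.

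The amino acid stress genes fell in both populations, 19 of 20 in each (25.1% and 27.7% of all genes), with 9 differences lower and 3 higher in Pdgfra-positive cells. SLC7A5, the large neutral amino acid transporter, stood at 141 and 142 CPM with Mock and 9.15 and 9.05 CPM with FGF8+10 in the Pdgfra-positive libraries, and 236 and 239 CPM with Mock and 47.2 and 47.8 CPM with FGF8+10 in the Pdgfra-low libraries. Its fall was 15.5-fold in Pdgfra-positive and 5.01-fold in Pdgfra-low cells (difference -1.63 ± 0.058). DDIT4, an inhibitor of mTORC1, went the other way, with a difference of 0.73 ± 0.057.

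Limb mesenchyme transcription factors were more often higher than lower in Pdgfra-positive cells in their change. Of 32 tested, 14 differences were higher in Pdgfra-positive cells and 1 was lower (12% and 14% of all genes), and the median was 0.212. Of the 14, 6 fell in both populations and more in Pdgfra-low cells, and 3 rose in Pdgfra-positive and fell in Pdgfra-low cells. SHOX2, a homeobox factor of the proximal limb, stood at 76.1 and 76.9 CPM with Mock and 14.5 and 14.3 CPM with FGF8+10 in the Pdgfra-positive libraries, and 50.1 and 46.5 CPM with Mock and 2.45 and 3.62 CPM with FGF8+10 in the Pdgfra-low libraries. TBX4, the T-box factor of the hindlimb, stood at 89.3 and 87.1 CPM with Mock and 33.7 and 32.5 CPM with FGF8+10 in the Pdgfra-positive libraries, and 87.6 and 84.9 CPM with Mock and 14.6 and 13.9 CPM with FGF8+10 in the Pdgfra-low libraries. TBX4 was level in the populations under Mock and SHOX2 somewhat higher in Pdgfra-positive cells, and under FGF8+10 the Pdgfra-positive libraries of both genes stood well above the Pdgfra-low libraries. SHOX2 fell 5.31-fold and 15.9-fold (difference 1.57 ± 0.12), and TBX4 fell 2.66-fold and 6.06-fold (1.19 ± 0.072). IRX3, a homeobox factor of proximal identity, had a difference of 1.41 ± 0.32 at levels of at most 7.97 CPM.

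TWIST1, a basic helix-loop-helix factor of mesenchyme, and PRRX1, the paired-related homeobox factor of limb bud mesenchyme, rose in Pdgfra-positive and fell in Pdgfra-low cells under both scalings. TWIST1 stood at 68.0 and 69.4 CPM with Mock and 93.6 and 88.3 CPM with FGF8+10 in the Pdgfra-positive libraries, and 58.1 and 57.5 CPM with Mock and 40.0 and 40.0 CPM with FGF8+10 in the Pdgfra-low libraries. PRRX1 stood at 244 and 250.1 CPM with Mock and 273 and 274 CPM with FGF8+10 in the Pdgfra-positive libraries, and 195 and 194 CPM with Mock and 142 and 147 CPM with FGF8+10 in the Pdgfra-low libraries. The populations were nearer each other under Mock than under FGF8+10 in both genes. The differences were 0.94 ± 0.063 and 0.58 ± 0.039. HAND2, which patterns the posterior limb bud, had opposite calls by TMM and rose in both populations by library totals (difference 0.31 ± 0.034). TBX3 was the single member with a lower change in Pdgfra-positive cells, rising 1.77-fold against 2.39-fold (-0.44 ± 0.034).

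Other mesoderm factors were mixed, with 8 of 22 lateral plate factors higher and 3 lower. OSR1, a zinc finger factor of lateral and intermediate mesoderm, fell 2.38-fold and 6.13-fold (difference 1.37 ± 0.079). GATA2, a factor of blood and endothelial progenitors, rose 5.81-fold and 14.5-fold (-1.32 ± 0.090). Of 35 HOX genes, 9 differences were lower and 3 higher in Pdgfra-positive cells (14% and 12% of all genes). In Pdgfra-positive and Pdgfra-low cells 26 and 27 HOX genes rose, where 25.8% and 27.9% of all genes did. HOXB6 rose 2.04-fold and 3.24-fold (-0.67 ± 0.12, with 32.9% of its exon bases shared with other genes).

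Genes of other signalling pathways also differed. In the hedgehog pathway, 8 of 13 differences were higher and 1 lower in Pdgfra-positive cells. GAS1, a coreceptor for hedgehog ligands, stood at 18.9 and 17.9 CPM with Mock and 21.2 and 21.0 CPM with FGF8+10 in the Pdgfra-positive libraries, and 54.7 and 55.6 CPM with Mock and 12.9 and 15.4 CPM with FGF8+10 in the Pdgfra-low libraries. It rose 1.15-fold in Pdgfra-positive and fell 3.90-fold in Pdgfra-low cells under both scalings (difference 2.16 ± 0.10). HHIP, the decoy receptor that hedgehog signalling induces, rose from below 1 CPM under Mock in both populations and further in Pdgfra-low cells (-1.97 ± 0.33). BOC, another coreceptor, had a difference of 0.80 ± 0.11.

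WNT antagonists and feedback genes were higher in Pdgfra-positive cells for 11 of 26 and lower for 2. DKK1, a secreted inhibitor of WNT coreceptors, stood at 12.2 and 11.7 CPM with Mock and 46.9 and 45.9 CPM with FGF8+10 in the Pdgfra-positive libraries, and 59.1 and 58.4 CPM with Mock and 64.8 and 67.3 CPM with FGF8+10 in the Pdgfra-low libraries. It rose 3.89-fold in Pdgfra-positive and 1.12-fold in Pdgfra-low cells (difference 1.79 ± 0.078). NKD1, a feedback inhibitor that WNT signalling induces, fell 3.14-fold and 8.75-fold (1.48 ± 0.13). WNT2, a ligand, stood at 0.717 and 0.996 CPM with Mock and 0.592 and 0.530 CPM with FGF8+10 in the Pdgfra-positive libraries, and 7.49 and 7.69 CPM with Mock and 0.377 and 0.290 CPM with FGF8+10 in the Pdgfra-low libraries. It was low everywhere but in the Mock Pdgfra-low libraries, and its difference was 3.89 ± 0.41.

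Of 10 BMP response genes, 5 differences were lower and 4 higher. ID3 and ID1, the inhibitors of DNA binding that SMADs induce, rose 2.90-fold and 1.67-fold in Pdgfra-positive and 7.29-fold and 3.58-fold in Pdgfra-low cells (differences -1.33 ± 0.083 and -1.11 ± 0.14). ID2 went the other way (0.38 ± 0.050). Among 21 BMP ligands and antagonists, 7 were lower and 5 higher. BMP6 rose 9.08-fold in Pdgfra-low cells and stood at no more than 0.829 CPM in the other 3 groups (difference -2.58 ± 0.44). NOG, the BMP antagonist noggin, stood at 0.538 and 0.498 CPM with Mock and 0.844 and 0.765 CPM with FGF8+10 in the Pdgfra-positive libraries, and 5.14 and 5.00 CPM with Mock and 1.89 and 2.17 CPM with FGF8+10 in the Pdgfra-low libraries. It fell in Pdgfra-low cells, and its rise in Pdgfra-positive cells was called by library totals only (difference 1.96 ± 0.38). In the TGF-beta list, 8 of 15 differences were higher and 2 lower. TGFB2 rose 2.91-fold and 1.37-fold (1.09 ± 0.090, with 34.2% of its exon bases shared with other genes), and LTBP1, a latent TGF-beta binding protein, rose 1.34-fold in Pdgfra-positive and fell 1.24-fold in Pdgfra-low cells (0.74 ± 0.040).

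Within the PDGF pathway, 3 of 7 genes had opposite calls under both scalings. PDGFRB, the second PDGF receptor, stood at 252 and 253 CPM with Mock and 294 and 298 CPM with FGF8+10 in the Pdgfra-positive libraries, and 199.7 and 198 CPM with Mock and 127 and 124 CPM with FGF8+10 in the Pdgfra-low libraries. It rose 1.17-fold in Pdgfra-positive and fell 1.59-fold in Pdgfra-low cells (difference 0.90 ± 0.038). PDGFD, a ligand of PDGFRB, moved in the reverse directions (-1.37 ± 0.19), as did PDGFB at no more than 0.631 CPM (-4.70 ± 1.1). In the retinoic acid pathway, 7 of 17 differences were higher and 3 lower. ALDH1A2, which makes retinoic acid, stood at 7.10 and 8.36 CPM with Mock and 82.8 and 75.2 CPM with FGF8+10 in the Pdgfra-positive libraries, and 0.345 and 0.529 CPM with Mock and 44.9 and 46.2 CPM with FGF8+10 in the Pdgfra-low libraries, a 10.2-fold rise in Pdgfra-positive and a 104-fold rise in Pdgfra-low cells (-3.35 ± 0.18).

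Collagens fell in both populations for the most part, 23 and 24 of 35 (25.1% and 27.7% of all genes), and the size of the fall differed gene by gene. Of the 35, 13 differences were higher and 9 lower in Pdgfra-positive cells (12% and 14% of all genes). COL21A1 fell 3.04-fold and 7.89-fold (difference 1.37 ± 0.048), and COL15A1, a basement membrane collagen, 118-fold and 46.0-fold (-1.36 ± 0.072). Among 26 proteoglycans and matricellular proteins, 11 were higher and 6 lower. DCN, the small proteoglycan decorin, fell 17-fold and 37.3-fold (1.13 ± 0.028), POSTN, periostin, 6.72-fold and 14.5-fold (1.11 ± 0.031). TNC, tenascin-C, rose 29.4-fold and 68.0-fold (-1.21 ± 0.079). HAPLN1, a link protein of cartilage matrix, stood at 1220.5 and 1245 CPM with Mock and 239 and 231 CPM with FGF8+10 in the Pdgfra-positive libraries, and 1276 and 1268 CPM with Mock and 781 and 762 CPM with FGF8+10 in the Pdgfra-low libraries. The Mock libraries of the populations were close. FGF8+10 lowered HAPLN1 5.25-fold in Pdgfra-positive and 1.65-fold in Pdgfra-low cells (difference -1.67 ± 0.029, adjusted p = 1.29e-37). HAPLN1 had the lowest difference among 16 cartilage genes tested. Of these 16, 5 differences were higher and 3 lower in Pdgfra-positive cells (12% and 14% of all genes), with a median of 0.323.

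Adhesion and guidance genes showed the same variety. CDH13, a cadherin without a cytoplasmic domain, stood at 24.3 and 24.0 CPM with Mock and 483 and 481 CPM with FGF8+10 in the Pdgfra-positive libraries, and 1.59 and 1.17 CPM with Mock and 240.0 and 239.6 CPM with FGF8+10 in the Pdgfra-low libraries. It rose in both, from a much lower Mock level in Pdgfra-low cells, and ended 482 against 239.8 CPM (difference -3.11 ± 0.087). GFRA1, the GDNF coreceptor, had the same pattern (-3.22 ± 0.25). SEMA3D, a secreted semaphorin, fell in Pdgfra-positive and rose in Pdgfra-low cells by both scalings (-2.13 ± 0.42). EPHA2, an ephrin receptor, rose 2.69-fold and 5.30-fold (-0.98 ± 0.11). Of 36 axon guidance genes, 12 differences were higher and 8 lower in Pdgfra-positive cells.

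Over all genes with a mean of at least 0.5 CPM in every group and 5 CPM in the highest, the same-direction genes with the largest differences were named. Among genes that rose more in Pdgfra-positive cells, KCTD16, an auxiliary subunit of GABA-B receptors, stood at 2.02 and 2.34 CPM with Mock and 18.5 and 18.9 CPM with FGF8+10 in the Pdgfra-positive libraries, and 9.56 and 11.3 CPM with Mock and 19.2 and 18.5 CPM with FGF8+10 in the Pdgfra-low libraries. FRAS1, the basement membrane protein altered in Fraser syndrome, stood at 30.8 and 27.4 CPM with Mock and 176 and 167 CPM with FGF8+10 in the Pdgfra-positive libraries, and 90.4 and 87.6 CPM with Mock and 168 and 167 CPM with FGF8+10 in the Pdgfra-low libraries. In both, the Mock Pdgfra-positive libraries were the lowest and the populations ended level. SEMA5B, a semaphorin, also began lowest there and ended higher. DLG2, a synaptic scaffold, stood at 5.02 and 5.23 CPM with Mock and 34.9 and 32.2 CPM with FGF8+10 in the Pdgfra-positive libraries, and 4.62 and 5.56 CPM with Mock and 9.02 and 7.78 CPM with FGF8+10 in the Pdgfra-low libraries. Its Mock levels were close and the Pdgfra-positive libraries ended highest. Differences were 2.23 ± 0.16 for KCTD16, 1.99 ± 0.16 for DLG2, 1.78 ± 0.23 for SEMA5B and 1.65 ± 0.056 for FRAS1.

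Among genes that rose more in Pdgfra-low cells, ANGPT1 was followed by NPR1, the receptor for atrial natriuretic peptide, at 11.9 and 12.5 CPM with Mock and 39.6 and 42 CPM with FGF8+10 in the Pdgfra-positive libraries, and 1.20 and 1.67 CPM with Mock and 81.5 and 83.0 CPM with FGF8+10 in the Pdgfra-low libraries. IL7R, the interleukin-7 receptor, stood at 3.34 and 4.61 CPM with Mock and 23.5 and 25.4 CPM with FGF8+10 in the Pdgfra-positive libraries, and 0.493 and 0.777 CPM with Mock and 59.4 and 57.8 CPM with FGF8+10 in the Pdgfra-low libraries. Each rose from the lowest level, in Mock Pdgfra-low cells, to the highest, in FGF8+10 Pdgfra-low cells. RASIP1, a RAS-interacting protein of endothelial cells, had a difference of -3.42 ± 0.20, against -4.10 ± 0.13 for NPR1 and -3.91 ± 0.19 for IL7R.

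Genes that fell more in Pdgfra-positive cells included CD9, a tetraspanin, at 39.0 and 37.6 CPM with Mock and 1.21 and 0.957 CPM with FGF8+10 in the Pdgfra-positive libraries, and 44.3 and 46.0 CPM with Mock and 7.07 and 6.70 CPM with FGF8+10 in the Pdgfra-low libraries. CAVIN1, a coat protein of caveolae, stood at 38.7 and 34.2 CPM with Mock and 3.57 and 3.69 CPM with FGF8+10 in the Pdgfra-positive libraries, and 74.6 and 77.0 CPM with Mock and 34.1 and 33.7 CPM with FGF8+10 in the Pdgfra-low libraries. CAVIN1 was lower in Pdgfra-positive cells already under Mock, and CD9 was nearly level there. PTCHD4, a patched-domain protein, NEBL, a nebulin-family protein, and KIF1A, a kinesin, also fell more. Differences were -2.63 ± 0.14 for PTCHD4, -2.43 ± 0.15 for CD9, -2.16 ± 0.100 for CAVIN1, -1.79 ± 0.15 for KIF1A and -1.74 ± 0.14 for NEBL.

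The 5 named genes that fell more in Pdgfra-low cells were highest in the Mock Pdgfra-low libraries. ITGA6, the laminin receptor subunit alpha 6, stood at 28.6 and 29.9 CPM with Mock and 7.02 and 6.68 CPM with FGF8+10 in the Pdgfra-positive libraries, and 350.1 and 352 CPM with Mock and 11.8 and 12.7 CPM with FGF8+10 in the Pdgfra-low libraries. CA12, a carbonic anhydrase of the cell surface, stood at 2.42 and 2.74 CPM with Mock and 0.977 and 1.12 CPM with FGF8+10 in the Pdgfra-positive libraries, and 38.3 and 42.4 CPM with Mock and 0.962 and 0.887 CPM with FGF8+10 in the Pdgfra-low libraries. CARNS1, carnosine synthase, stood at 5.33 and 5.54 CPM with Mock and 1.35 and 0.972 CPM with FGF8+10 in the Pdgfra-positive libraries, and 38.2 and 40.2 CPM with Mock and 0.604 and 0.665 CPM with FGF8+10 in the Pdgfra-low libraries. The FGF8+10 libraries of both populations were low in all 3. The differences were 2.75 ± 0.077, 4.15 ± 0.24 and 3.71 ± 0.24, and CADPS (2.58 ± 0.31) and PYGM, muscle glycogen phosphorylase (2.50 ± 0.21), had the same pattern.

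Some genes were called in a single population, which says only that the other change missed its threshold. ITGA11, a collagen receptor subunit of mesenchyme, stood at 3.72 and 3.78 CPM with Mock and 16.1 and 13.5 CPM with FGF8+10 in the Pdgfra-positive libraries, and 18.3 and 16.8 CPM with Mock and 15.1 and 15.1 CPM with FGF8+10 in the Pdgfra-low libraries (difference 2.19 ± 0.15). GUCY1A1, a subunit of soluble guanylate cyclase, rose 3.11-fold in Pdgfra-positive cells against a log2 change of -0.06 ± 0.097 (1.69 ± 0.14). DOK5, an adaptor of receptor tyrosine kinases, rose 2.69-fold there (1.36 ± 0.11). EMB, TIGAR and ALDH1B1 fell in Pdgfra-positive cells, with differences of -1.53 ± 0.23, -1.38 ± 0.24 and -1.12 ± 0.11. By library totals DOK5 rose in both populations, and EMB, TIGAR and ALDH1B1 had opposite calls. MMRN2, an endothelial matrix protein, rose 13-fold in Pdgfra-low cells against -0.029 ± 0.17 (log2) in Pdgfra-positive cells (-3.73 ± 0.24). PTK2B, a calcium-regulated tyrosine kinase, stood at 5.58 and 7.06 CPM with Mock and 5.70 and 5.76 CPM with FGF8+10 in the Pdgfra-positive libraries, and 29.3 and 28.8 CPM with Mock and 5.21 and 5.29 CPM with FGF8+10 in the Pdgfra-low libraries. It fell 5.54-fold in Pdgfra-low cells to the level that the Pdgfra-positive libraries already had (difference 2.32 ± 0.16), and EFHD1, a calcium-binding mitochondrial protein, did likewise (2.07 ± 0.25).

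Several of the largest fitted differences belonged to genes near 0 in a group, for which the ratio of counts is the safer measure. SFRP5, a secreted WNT antagonist, fell 36.5-fold in Pdgfra-positive cells (exact 95% interval of the ratio 0.0135 to 0.0496). In Pdgfra-low cells both FGF8+10 libraries held 0 counts. A floor of 6 counts, or 3 read pairs, over the group gave a 255-fold fall there (ratio 0.00392). The exact upper limit of the ratio, 0.00483, allows a smaller fall. At this floor the log2 difference was 2.80, which leaves out counting error and is not a bound. OSR2, a zinc finger factor of limb and palate mesenchyme, fell 80.6-fold in Pdgfra-positive cells (ratio 0.00754 to 0.0203). At the floor it fell 262-fold in Pdgfra-low cells (ratio 0.00382), and the exact upper limit of 0.0047 again allows a smaller fall. The log2 difference of OSR2 at the floor was 1.70, which likewise leaves out counting error and is not a bound. PIK3CG, a PI3-kinase subunit, rose 3.43-fold in Pdgfra-positive and 291-fold in Pdgfra-low cells (exact 95% interval 99.0 to 1410), from 6 counts over the Mock Pdgfra-low group. GIMAP4, a GTPase of immune cells, changed 1.08-fold (0.699 to 1.67) and 71.5-fold (37.4 to 157). KLHL14 rose 11.8-fold in Pdgfra-positive cells and 1210-fold in Pdgfra-low cells, from 2 counts, with an interval of 217 to 47900. RPSAP44 is a pseudogene of a ribosomal protein gene whose reads could come from near-identical copies, so its fold is not given. These intervals cover counting error only.

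Markers of other cell types moved with some groups. Mesothelium and epicardium markers summed to 2370 and 2390 CPM in Mock Pdgfra-low libraries, 944 and 949 in Mock Pdgfra-positive, 1640 and 1650 in FGF8+10 Pdgfra-low and 814 and 821 in FGF8+10 Pdgfra-positive libraries. Of 15 tested, 6 had a higher and 4 a lower difference in Pdgfra-positive cells. PODXL, podocalyxin, stood at 30.5 and 27.5 CPM with Mock and 2.1 and 1.94 CPM with FGF8+10 in the Pdgfra-positive libraries, and 862 and 838 CPM with Mock and 25.6 and 22.7 CPM with FGF8+10 in the Pdgfra-low libraries (difference 1.30 ± 0.11). UPK3B (3.42 ± 0.51) and BNC1 (1.41 ± 0.094) likewise fell further in Pdgfra-low cells, from a higher Mock level, and their falls in Pdgfra-positive cells were not called by library totals. ALDH1A2 and KRT18, also on the list, went the other way, with rises of 104-fold and 1.97-fold in Pdgfra-low cells. Epithelial and ectoderm markers summed to 1130 and 1140 CPM in Mock Pdgfra-low, 668 and 670 in Mock Pdgfra-positive, 1300 and 1310 in FGF8+10 Pdgfra-low and 475 and 478 in FGF8+10 Pdgfra-positive libraries. KRT8, KRT18 and KRT19 are on both this list and the mesothelium list, so the summed levels share them. Of 11 epithelial and ectoderm markers tested, 3 differences were lower and 0 higher in Pdgfra-positive cells (14% and 12% of all genes). In Pdgfra-low cells 3 rose and 3 fell (27.9% and 27.7% of all genes). In Pdgfra-positive cells 1 rose and 6 fell (25.8% and 25.1% of all genes). KRT18, a keratin of simple epithelia, rose 1.97-fold in Pdgfra-low cells against a log2 change of 0.023 ± 0.035 in Pdgfra-positive cells, called as a rise by library totals only (-0.96 ± 0.047). CDH1, the epithelial cadherin, fell 11.3-fold and 33.6-fold, to 8 and 4 counts over the FGF8+10 groups, and its difference was not called. STMN2, a neuronal stathmin, fell 5.55-fold and 20.2-fold from 129 and 129 CPM in Mock Pdgfra-low libraries (1.86 ± 0.14). It was 1 of 10 neural and neural crest markers tested, of which 2 differences were higher and 1 lower, that of TUBB3 (-1.56 ± 0.52), and 4 of the 10 lay below 0. TNNI1, a slow troponin, fell 4.42-fold and 11.9-fold (1.43 ± 0.083), and 3 of 12 cardiac markers were higher and 1 lower. Their part in the differences above was not tested.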

How the data were processed

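RNA-seq of 8 libraries of sorted H1 cells was analysed from the counts per gene that the authors deposited. Per the submitters' processing notes, FastQC 0.11.8, HISAT2 2.1.0, featureCounts 2.0.3 and a GRCh38 genome were used. Per the file headers, genes were those of GENCODE release 42, both mates of a pair were counted separately and strand was ignored, so a read pair can give 2 counts and antisense or overlapping genes cannot be told apart. Among other named genes, exon bases shared with other genes came to 36.4% for EBP, 25.0% for GUCY1A1, 24.1% for HAND2 and 21.3% for TUBB3. They were 19.4% for TIGAR and 16.1% for PDGFRA, so these counts are less certain too. Depth was 47698561 to 64390444 counts per library. Genes passing filterByExpr (22554 of 39416 with any count) were fitted with edgeR 4.0.16 (R 4.3.3, quasi-likelihood, robust, TMM scaling) as 4 groups of 2 libraries, without a replicate term and with 4 residual degrees of freedom. The difference of the FGF8+10 changes was tested and adjusted over all genes by the Benjamini-Hochberg method at 0.05. The common biological coefficient of variation was 4.06%. CPM values use library totals scaled by TMM. For groups at 0, a floor of 6 counts (3 pairs) over the group was used, and intervals are exact binomial at 95%. Promoter sequences are from RefSeq (GRCh38.p14).

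The named genes were those with a symbol, a call for the difference and at least 5 CPM in the highest group: in each orientation the 6 opposite genes with the largest smaller change, 5 genes per same-direction class and 3 per single-population class with at least 0.5 CPM in every group, and 6 genes below that in a group, each by largest difference. The largest differences of 42 gene lists were added, and other list members were named after their values were seen. Some members of the cholesterol list count in its totals but are not reported singly here. The members and lists were chosen with earlier results of these data known. Alternatives were DESeq2 size factors, library totals alone, no filter, DESeq2 1.42.0, limma 3.58.1 with voom, a replicate block, each library left out, and halved counts, the last chosen after seeing the data. Scripts were tested on simulated data.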

Additional observations from a re-analysis of the deposited data

Results flagged for a closer look

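The FGF8+10 changes of 12 genes stood out because they ran in opposite directions in the populations and the test of the difference itself was passed. The log2 change in Pdgfra-positive cells minus that in Pdgfra-low cells was 3.39 for KCNIP1, 2.80 for TNFAIP3, 2.71 for TENM2, 2.32 for NFATC2, 2.05 for NELL2 and 1.86 for IGFBP5. It was -3.27 for SP6, -3.21 for TIE1, -3.20 for APLNR, -2.80 for CYP1B1, -2.32 for MYLK3 and -1.89 for AHR. Both libraries of each group showed the direction in all 12 genes. The genes were chosen by these same values, so this is no separate support. Libraries lay apart in opposite directions in 1474 of all tested genes (6.54%).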

How the results depend on the processing

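Across 15 alternatives, the number of genes called for the difference ranged from 5012 to 6067 against 5862, and no gene called under both the reported and an alternative setting changed sign. Library totals alone gave 5865 (5708 shared), but moved the genes that rose in both and more in Pdgfra-positive cells from 383 to 666 and those that fell in both and more there from 476 to 315. DESeq2 gave 5228 (5213 shared), no filter 5665 of 39416 genes, and halved counts 6067. Replicate numbers did not pair the libraries (correlations of same-numbered deviations -0.00951 to 0.0345 over 10042 genes), and the fit with a replicate block gave 5824 calls, 5752 of them shared. Without the second Mock Pdgfra-positive library, SOST (0.49) and LHX1 (0.30), both near 0 counts in a Mock group, changed sign; the cause was not tested. Over all libraries left out in turn, SOST ranged from -5.18 to 0.49 and LHX1 from -6.72 to 0.30. Of 2959 single-gene values of 198 genes, 2816 kept direction and call, 137 lost the call, 4 gained it and 2 changed sign. Leaving out each library in turn gave 2360 to 2601 genes higher and 2537 to 2848 lower in Pdgfra-positive cells, 191 to 223 and 179 to 224 in the 2 opposite orientations, and 894 to 1023 with a 2-fold difference. It gave 313 to 368 genes that rose and 352 to 424 that fell more in Pdgfra-positive cells, 1132 to 1262 that rose and 849 to 969 that fell more in Pdgfra-low cells, 332 to 441 and 289 to 372 that rose and fell in Pdgfra-positive cells alone, and 468 to 657 and 528 to 679 in Pdgfra-low cells alone. The depth allows no fold for groups at 0 counts beyond a bound.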
